A study of Homo sapiens with 12 samples.

Results

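The 9 liver enzyme genes set out here open or carry the breakdown of histidine, tyrosine and tryptophan, and were followed through SLC6A8 knockdown in a pair of hypoxic hepatocellular carcinoma lines. The genes were HAL, UROC1, AMDHD1 and FTCD for histidine, TAT, HPD and HGD for tyrosine, and TDO2 and KMO for tryptophan. They were picked by symbol, and all 9 were found among the 62703 genes listed for both lines. The set was put together because HAL was lower in Hep3B knockdown cells and not in Huh7 knockdown cells, so the knockdown changes of the 9 genes are given as descriptions, and no p is used to support them.

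The knockdown groups carried the hairpin shSLC6A8, against the creatine transporter gene SLC6A8, and the control groups carried the hairpin shNC. Each of the 4 groups held 3 libraries: Hep3B shSLC6A8, Hep3B shNC, Huh7 shSLC6A8 and Huh7 shNC. Hep3B and Huh7 are established human hepatocellular carcinoma lines, and all 12 libraries came from cells kept under hypoxia for 24 h, controls included. No normoxic library was analysed here, and the labels name 1 knockdown hairpin without its sequence, so effects of that hairpin on other targets cannot be told apart from loss of SLC6A8. Nothing in the labels says whether the libraries of a group came from separate cultures, so errors and p-values below reflect library-to-library spread and may be purely technical.

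The liver disposes of surplus histidine through a chain of cytosolic steps: histidine ammonia-lyase, HAL, removes ammonia to give urocanate, urocanase, UROC1, hydrates it, the amidohydrolase AMDHD1 opens the imidazolone ring, and FTCD passes the formimino group to tetrahydrofolate and leaves glutamate. Tyrosine is handled by the aminotransferase TAT, then by the dioxygenase HPD, which makes homogentisate, and by HGD, which opens the homogentisate ring. Tryptophan enters the kynurenine pathway through the haem dioxygenase TDO2, and KMO hydroxylates kynurenine; several of these genes are classical hepatocyte genes, and TAT and TDO2 are textbook targets of glucocorticoids.

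HAL lies on chromosome 12 at 95972662 to 95996344 on the minus strand (GRCh38.p14), and AMDHD1 lies beside it on the plus strand at 95943331 to 95968720, so that the neighbouring histidine genes point towards each other with 3941 bases between their ends. FTCD is on chromosome 21 at 46136262 to 46155579, minus strand. HPD is on chromosome 12 at 121839527 to 121888611, minus strand. UROC1 and HGD are both on the minus strand of chromosome 3, at 126481166 to 126517773 and at 120628172 to 120682239. TAT is on chromosome 16 at 71565660 to 71577092, minus strand. TDO2 is on chromosome 4 at 155903696 to 155920406 and KMO on chromosome 1 at 241532378 to 241595642, both on the plus strand.

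The start regions of HAL, AMDHD1, FTCD and HPD are shown because these 4 genes carry differences described below. TAT differed too, but no promoter sequence was at hand for it. RefSeq promoter sequences (GRCh38.p14, 250 bases before to 50 after a start, read 5′ to 3′ on the strand of the gene) were at hand for 7 of the 9 genes, with a pair of starts for HPD. Capitals mark ACGTG on either strand, a form of the core of the hypoxia response element. The other form of that core, GCGTG, was not searched and is not marked. An overlapping match of ACGTG on both strands reads CACGTG. The windows are chr12:95996295-95996594 (minus strand) for HAL, chr12:95943081-95943380 (plus strand) for AMDHD1, chr21:46155530-46155829 (minus strand) for FTCD, and chr12:121888562-121888861 and chr12:121858810-121859109 (minus strand) for the upstream and downstream starts of HPD.
HAL: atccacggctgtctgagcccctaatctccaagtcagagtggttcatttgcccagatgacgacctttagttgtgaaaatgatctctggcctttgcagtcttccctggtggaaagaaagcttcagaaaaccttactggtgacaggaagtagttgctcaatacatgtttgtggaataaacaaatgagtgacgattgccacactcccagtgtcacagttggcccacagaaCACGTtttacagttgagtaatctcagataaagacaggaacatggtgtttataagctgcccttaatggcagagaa
AMDHD1: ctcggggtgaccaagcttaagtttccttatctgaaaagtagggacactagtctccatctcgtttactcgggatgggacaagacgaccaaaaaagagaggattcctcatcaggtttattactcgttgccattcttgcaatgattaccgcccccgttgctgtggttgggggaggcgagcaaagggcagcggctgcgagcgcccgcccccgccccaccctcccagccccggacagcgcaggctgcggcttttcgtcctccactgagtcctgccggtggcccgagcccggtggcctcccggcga
FTCD: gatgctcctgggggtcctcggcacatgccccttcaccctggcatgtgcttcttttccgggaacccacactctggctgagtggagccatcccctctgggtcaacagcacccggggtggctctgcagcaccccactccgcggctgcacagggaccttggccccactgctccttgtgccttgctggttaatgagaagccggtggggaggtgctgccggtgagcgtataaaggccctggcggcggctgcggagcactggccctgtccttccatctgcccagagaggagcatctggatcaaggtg
HPD upstream start: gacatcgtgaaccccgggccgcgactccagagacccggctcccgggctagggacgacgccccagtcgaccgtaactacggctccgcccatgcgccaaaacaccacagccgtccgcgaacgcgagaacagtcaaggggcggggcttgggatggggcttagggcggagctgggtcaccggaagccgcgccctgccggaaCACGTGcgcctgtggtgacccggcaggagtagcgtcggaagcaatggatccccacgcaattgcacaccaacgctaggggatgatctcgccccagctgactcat
HPD downstream start: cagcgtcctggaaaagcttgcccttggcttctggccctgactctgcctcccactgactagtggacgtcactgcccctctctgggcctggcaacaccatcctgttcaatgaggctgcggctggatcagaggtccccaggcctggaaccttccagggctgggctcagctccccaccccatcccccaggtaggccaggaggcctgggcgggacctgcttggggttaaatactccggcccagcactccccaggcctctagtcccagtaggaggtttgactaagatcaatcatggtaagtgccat
The HAL window held 1 match, read on the opposite strand, at base -24 from the start. The upstream HPD window held the palindrome CACGTG at base -53. That window also reaches into the neighbouring gene PSMD9, which begins at 121888790, and the palindrome lies between the spans of HPD and PSMD9. No match stood in the other windows printed, nor in those of UROC1, TDO2 and KMO. Of 35116 RefSeq promoters of 300 bases, 21.4% held ACGTG on either strand and 7.26% held CACGTG. A match of letters is a description of the sequence, and the deposited tables do not say which HPD start was used.

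Summed counts ran between 21065965 and 28078068 per library. SLC6A8 was lower in both knockdowns, at 35.0 ± 0.797 CPM in Hep3B shSLC6A8 against 373 ± 8.18 CPM in Hep3B shNC (SD, n = 3 each), while Huh7 shSLC6A8 libraries lay at 8.50 to 10.9 CPM against 35.1 to 36.3 CPM in Huh7 shNC. In CPM, the SLC6A8 level left in Hep3B knockdown cells was thus close to that of Huh7 control cells. In the deposited length-scaled values it was higher, at 21.1 ± 3.18 against 14.3 ± 1.41 TPM (SD, n = 3 each). Hepatocyte markers were present in every group: all 12 listed genes were at 1 CPM or more, with summed levels of 22300 to 24900 CPM in Hep3B shSLC6A8 against 37600 to 40000 CPM in Hep3B shNC, and 19100 to 19600 CPM in Huh7 shSLC6A8 against 15500 to 16400 CPM in Huh7 shNC. Counts scaled to library size, CPM, are normalised across all 12 libraries by trimmed mean of M-values and compare a gene between libraries; the deposited length-scaled values, TPM, are used where levels of different genes are compared.

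HAL, the entry enzyme of histidine breakdown, was the most lowered of the 9 genes in Hep3B and was slightly higher in Huh7. In Hep3B shSLC6A8 libraries HAL stood at 14.1, 15.9 and 16.0 CPM, against 148, 139 and 140 CPM in Hep3B shNC libraries. In Huh7 shSLC6A8 libraries it stood at 40.3, 38.9 and 37.2 CPM, against 28.9, 26.3 and 25.6 CPM in Huh7 shNC libraries. The groups did not overlap in either line, and the Hep3B control libraries stood above all others. The log2 change was -3.22 ± 0.07 in Hep3B (SE from edgeR's quasi-likelihood fit, 3 against 3 libraries), 9.34-fold lower, and 0.52 ± 0.07 in Huh7, 1.43-fold higher, and the Hep3B minus Huh7 difference of these changes was -3.74 ± 0.09. Behind the Hep3B values were 404 to 413 estimated counts per knockdown library and 2716 to 3146 per control library. Of 16181 genes tested in Hep3B, 24 had a lower log2 change than HAL.

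The order of the lines in HAL turned round with knockdown. Among knockdown cells HAL was 2.53-fold lower in Hep3B than in Huh7, a log2 difference of -1.34, whereas among control cells it was 5.28-fold higher in Hep3B, a log2 difference of 2.40 ± 0.07. Hep3B knockdown cells, at 15.3 ± 1.09 CPM (SD, n = 3), therefore held less HAL than Huh7 control cells at 26.9 ± 1.75 CPM (SD, n = 3). In bulk RNA, fewer cells with a transcript and less transcript per cell cannot be told apart. The sum of the 12 hepatocyte markers, given above, was lower in Hep3B knockdown libraries too and higher in Huh7 knockdown libraries. ALB was its largest part in every group. Of the 12, 8 were called lower and 1 higher in Hep3B, where 21.2% of all genes tested were lower and 18.9% higher. In Huh7 2 were lower and 9 higher, against 31.0% and 30.9% of all genes tested. The part of these markers in the HAL values was not tested.

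**Figure D1:**
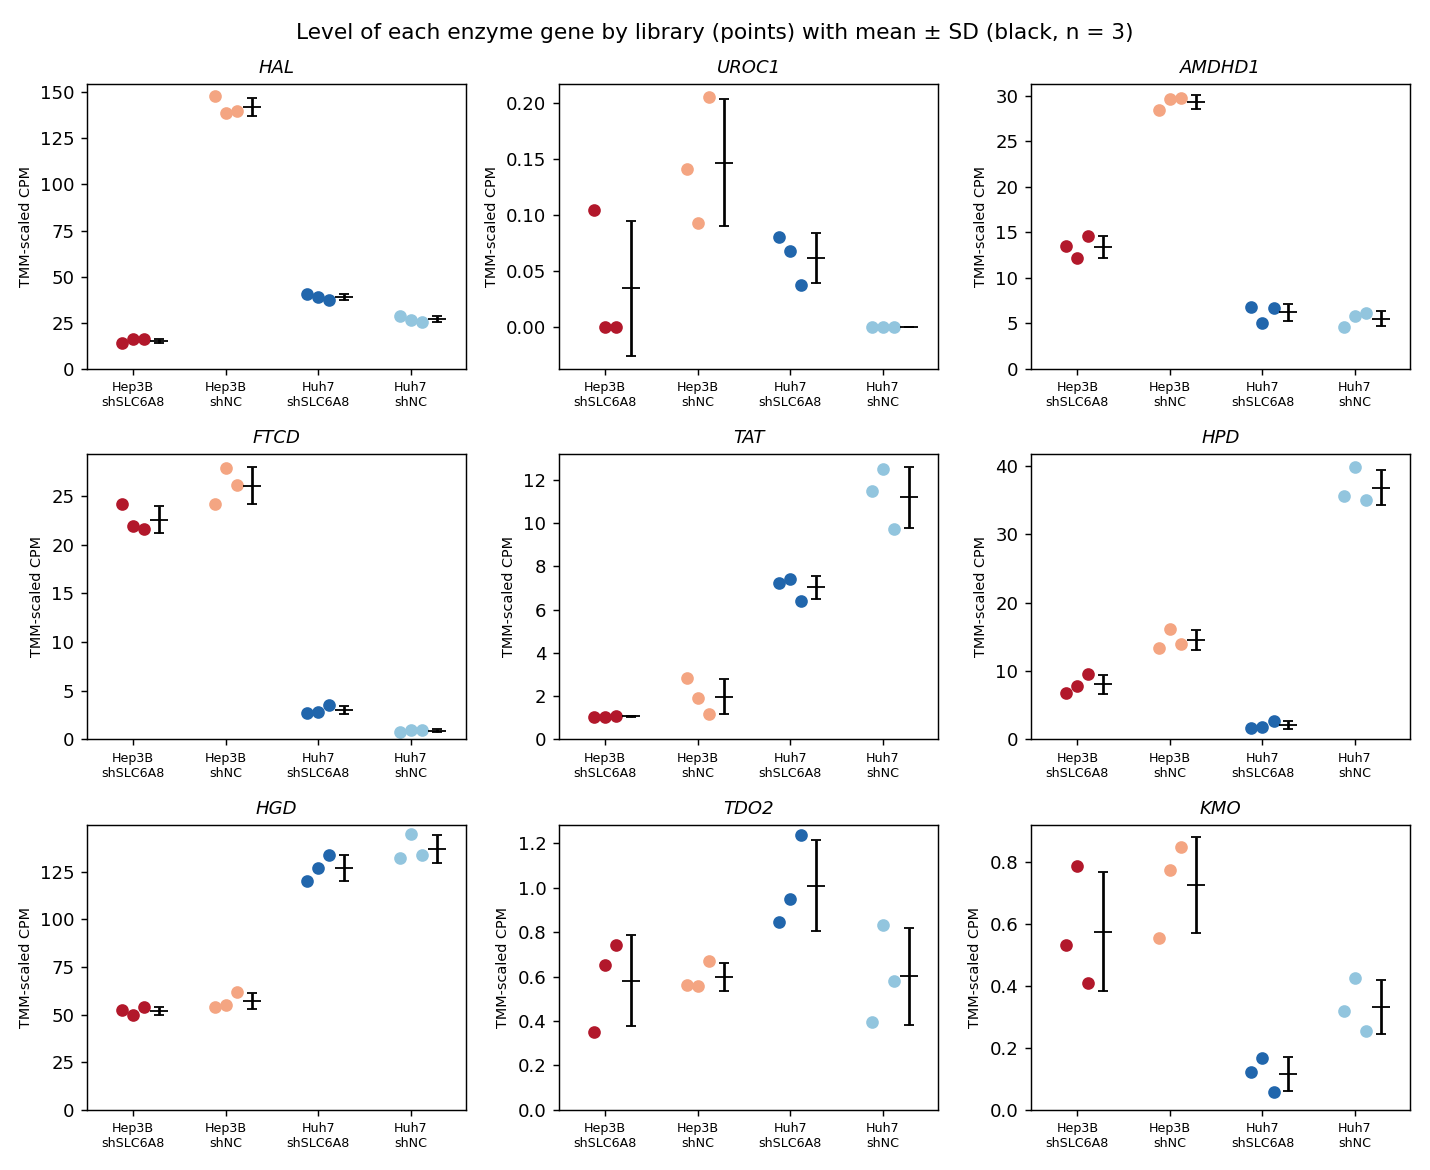
Level of each of the 9 genes in every library, in TMM-scaled CPM, with a panel per gene; points are libraries and bars are the mean ± SD of the 3 libraries of a group. HAL stands at 14.1 to 16.0 CPM in Hep3B shSLC6A8 against 139 to 148 CPM in Hep3B shNC, and HPD at 1.69 to 2.71 CPM in Huh7 shSLC6A8 against 35.0 to 39.8 CPM in Huh7 shNC.

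Of the later histidine enzymes, AMDHD1 was lower in Hep3B knockdown cells by a smaller step than HAL. AMDHD1, which opens the imidazolone ring and neighbours HAL, stood at 13.5, 12.2 and 14.6 CPM in Hep3B shSLC6A8 against 28.4, 29.7 and 29.8 CPM in Hep3B shNC, without overlap. Its log2 change there was -1.14 ± 0.08, 2.2-fold lower. In Huh7 it stood at 6.78, 5.06 and 6.72 CPM in shSLC6A8 against 4.58, 5.84 and 6.12 CPM in shNC libraries; these groups overlapped, with a log2 change of 0.15 ± 0.15. Hep3B knockdown cells still held more AMDHD1 than either Huh7 group.

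FTCD, which hands the formimino group to folate, moved mainly in Huh7. There it stood at 2.74, 2.78 and 3.54 CPM in shSLC6A8 against 0.705, 0.920 and 0.991 CPM in shNC libraries, a log2 change of 1.78 ± 0.24 on 16 to 24 estimated counts per control library. In Hep3B the shSLC6A8 libraries stood at 24.2, 21.9 and 21.6 CPM, against 24.2, 27.9 and 26.2 CPM in shNC libraries. The Hep3B groups met at 24.2 CPM, and the log2 change was -0.22 ± 0.08. FTCD overlaps an antisense gene, FTCD-AS1, which was at a mean of 0.0232 CPM or below in every group.

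UROC1, the step between HAL and AMDHD1, was hardly detected. Its estimated counts were 3, 0 and 0 in Hep3B shSLC6A8 against 3, 2 and 4 in Hep3B shNC, and 2, 2 and 1 in Huh7 shSLC6A8 against 0, 0 and 0 in Huh7 shNC. A count of 0 over the 3 Huh7 control libraries allows a level of up to 0.043 CPM (3 counts over the group, counting error only). UROC1 passed no filter on low counts, so no difference was detectable at this depth. Both lines thus carried RNA of HAL, AMDHD1 and FTCD, with the RNA of the second enzyme of the chain at or near 0.

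HPD, the tyrosine pathway dioxygenase that makes homogentisate, was lower in both knockdowns and by far more in Huh7. Hep3B shSLC6A8 libraries held 6.80, 7.74 and 9.52 CPM, against 13.3, 16.1 and 14 CPM in Hep3B shNC libraries. Huh7 shSLC6A8 libraries held 1.69, 1.86 and 2.71 CPM, against 35.6, 39.8 and 35.0 CPM in Huh7 shNC libraries. Neither pair of groups overlapped. The log2 change was -0.86 ± 0.14 in Hep3B, 1.82-fold lower, and -4.14 ± 0.13 in Huh7, 17.6-fold lower, so the Hep3B minus Huh7 difference was 3.28 ± 0.21, opposite in sign to that of HAL. Of 17022 genes tested in Huh7, 36 had a lower log2 change than HPD.

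HGD, which acts on the product of HPD, was the steadiest gene of the set. It stood at 52.4, 49.6 and 53.9 CPM in Hep3B shSLC6A8 against 54.1, 54.9 and 61.7 CPM in Hep3B shNC, and at 120, 127 and 134 CPM in Huh7 shSLC6A8 against 132, 145 and 134 CPM in Huh7 shNC. The Hep3B groups did not overlap, though by a narrow margin, and the Huh7 groups did. The log2 changes were -0.14 ± 0.07 in Hep3B and -0.12 ± 0.06 in Huh7, and their difference was -0.02 ± 0.09. The HPD and HGD changes in Huh7, consecutive enzymes of the same pathway, thus differed widely.

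TAT, the aminotransferase that starts tyrosine breakdown, was lower in Huh7 knockdown cells at 7.25, 7.42 and 6.41 CPM, against 11.5, 12.5 and 9.72 CPM in Huh7 control cells. Its log2 change there was -0.68 ± 0.12, 1.6-fold lower, without overlap. In Hep3B it was low throughout, at 1.05, 1.04 and 1.09 CPM in shSLC6A8 against 2.82, 1.91 and 1.18 CPM in shNC libraries. The Hep3B control libraries spread more widely than the whole knockdown group, and the log2 change of -0.91 ± 0.32 became -0.56 without control replicate 1. An antisense gene, TAT-AS1, averaged 0.0826 to 0.605 CPM over the 4 groups; whether the counting used strand is not given in the sources used here, so reads of the pair may not be separable.

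The tryptophan genes were near the limit of detection. TDO2, the haem dioxygenase of the first step, lay between 0.349 and 0.742 CPM in Hep3B shSLC6A8 against 0.558 and 0.669 CPM in Hep3B shNC, and between 0.847 and 1.24 CPM in Huh7 shSLC6A8 against 0.397 and 0.833 CPM in Huh7 shNC. Its log2 changes were -0.05 ± 0.38 in Hep3B and 0.74 ± 0.36 in Huh7. KMO, the kynurenine hydroxylase, averaged 0.576 CPM in Hep3B shSLC6A8 against 0.727 CPM in Hep3B shNC, a log2 change of -0.38 ± 0.37, and 0.115 CPM in Huh7 shSLC6A8 against 0.333 CPM in Huh7 shNC, where it did not pass the filter on low counts. KMO overlaps OPN3 on the other strand, which averaged between 23.4 and 53.1 CPM over the groups, far above KMO itself.

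**Figure D2:**
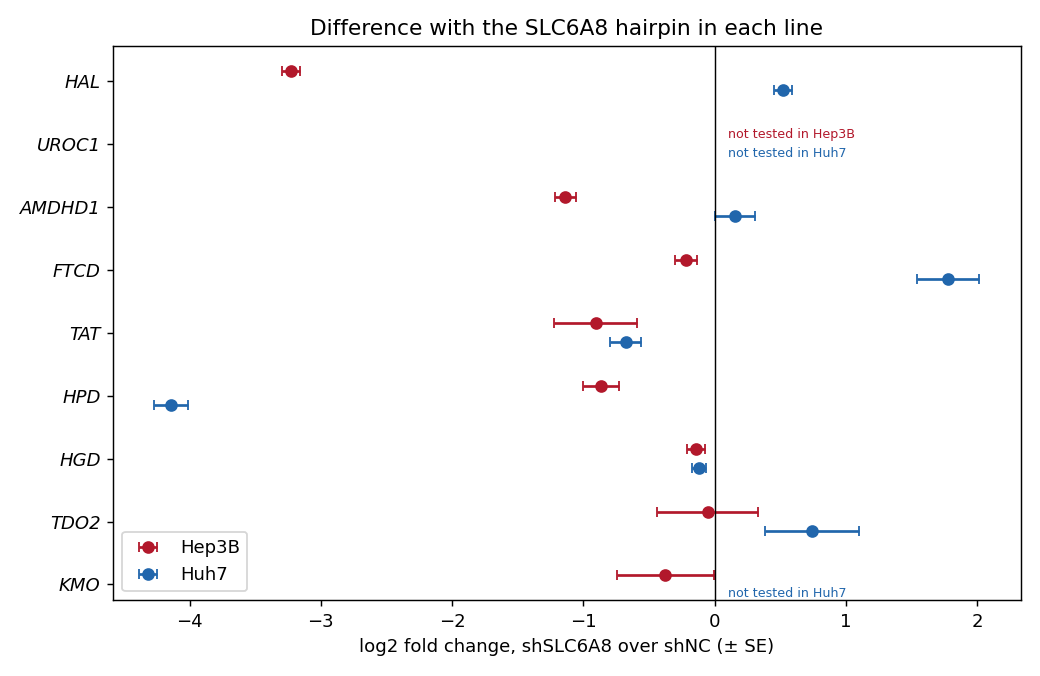
Log2 change of knockdown over control ± SE (edgeR) for the genes that passed the filter on low counts, in Hep3B and in Huh7. HAL lies at -3.22 in Hep3B and 0.52 in Huh7, HPD at -0.86 and -4.14, and HGD near 0 in both lines.

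Of the 9 genes, 8 passed the filter on low counts in Hep3B (all but UROC1) and 7 in Huh7 (all but UROC1 and KMO). For description, the genes past an adjusted p of 0.05 over all genes (edgeR, Benjamini-Hochberg) were HAL, AMDHD1, HPD and, not in DESeq2, TAT in Hep3B, 4 of 8 and all lower. Of all genes tested in Hep3B, 40.1% passed, 18.9% higher and 21.2% lower. In Huh7 they were HAL and FTCD, higher, and TAT and HPD, lower, 4 of 7. Of all genes tested in Huh7, 61.8% passed, 30.9% higher and 31.0% lower. Since the set was built around HAL in these contrasts, nothing is read from these counts.

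Per transcript length, the knockdowns rearranged the order of the 9 genes. In Hep3B shSLC6A8 the TPM order was HGD at 60.0, FTCD at 22.8, AMDHD1 at 9.64, HPD at 9.16 and HAL at 7.09, with the other 4 genes below 1 TPM. In Hep3B shNC HAL was first at 60.5 ± 5.24 TPM, next to HGD at 57.8 ± 5.05 TPM (SD, n = 3), which did not differ beyond their spread, followed by FTCD at 22.2, AMDHD1 at 19.3 and HPD at 14.3 TPM. HAL made up 6.44% of the summed TPM of the 9 genes in Hep3B knockdown cells, against 34.4% in Hep3B control cells, and the sum itself was 109 to 111 TPM against 167 to 188 TPM.

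In Huh7 the place of HPD changed in the same way. HGD led both Huh7 groups at a mean of 146 TPM. After it came HAL at 19.3, AMDHD1 at 5.59, FTCD at 2.87, TAT at 2.61 and HPD at 2.37 TPM in knockdown cells, the last 3 lying within their spread of each other; in control cells HPD was second at 38.4, before HAL at 10.6, AMDHD1 at 5.09, TAT at 4.09 and FTCD at 0.763 TPM. HPD held 1.31% of the summed TPM of the 9 genes in Huh7 knockdown cells, against 18.7% in Huh7 control cells. The HAL ratio in Huh7 was larger in TPM, with means of 19.3 ± 2.82 and 10.6 ± 1.46 TPM in knockdown and control cells (SD, n = 3 each), than in CPM; the lengths that the deposited TPM values used in each library are not given.

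**Figure D3:**
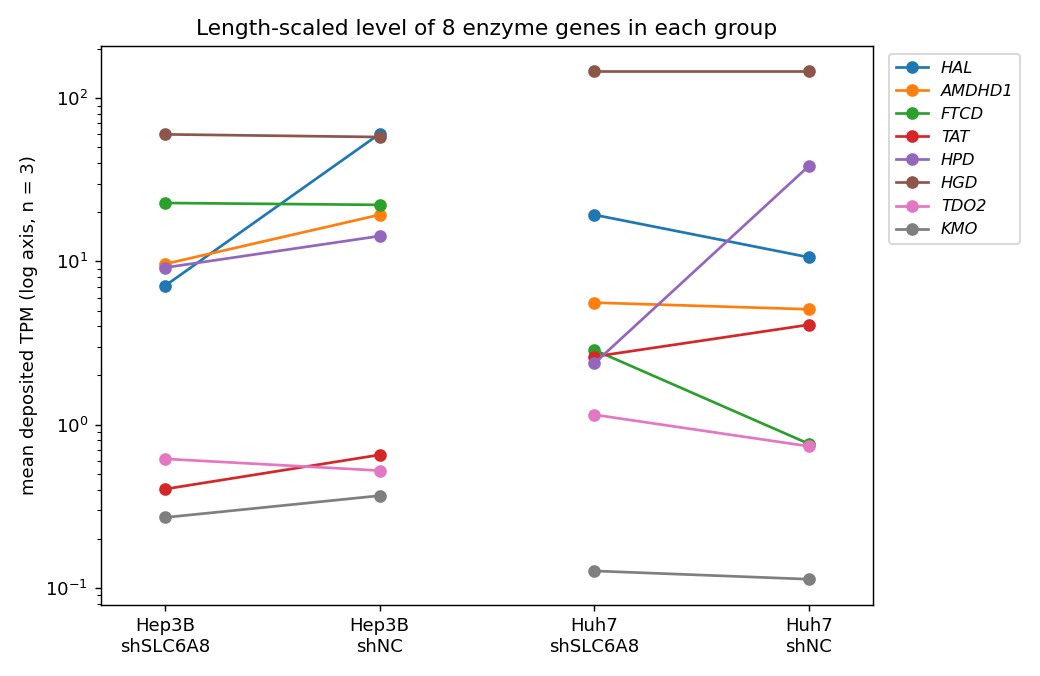
Mean TPM (log axis) of 8 of the 9 genes in the 4 groups, with knockdown joined to control within each line; UROC1 is left out because it is at or near 0. HAL lies at 7.09 TPM in Hep3B shSLC6A8 against 60.5 TPM in Hep3B shNC, and HPD at 2.37 TPM in Huh7 shSLC6A8 against 38.4 TPM in Huh7 shNC, while HGD stays the highest gene in 3 of the 4 groups.

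The control cells of the lines differed in nearly all of these genes before any knockdown. Compared with Huh7 shNC, Hep3B shNC had more AMDHD1 (log2 difference 2.41 ± 0.12, adjusted p = 7.64e-12) and more FTCD (4.89 ± 0.14, adjusted p = 4.98e-15; edgeR over all 12 libraries, Benjamini-Hochberg). It had less TAT (-2.50 ± 0.20, adjusted p = 4.08e-09), less HPD (-1.35 ± 0.12, adjusted p = 2.2e-08) and less HGD (-1.27 ± 0.06, adjusted p = 5.26e-12). Control Hep3B cells thus stood higher for the tested histidine enzymes and lower for the tyrosine enzymes. TDO2 did not pass (-0.02 ± 0.40, adjusted p = 0.971), and KMO passed narrowly (1.12 ± 0.43, adjusted p = 0.0231), a call lost in DESeq2 with an adjusted p of 0.0547. Of all genes tested between the control groups 81.2% passed, 39.9% higher and 41.3% lower in Hep3B, so the 6 of 7 seen here is near the background. Each line came in its own deposited table, so line and table cannot be told apart.

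Across the 12 libraries, the levels of TAT and HGD ran together (Pearson r = 0.951 of log2 CPM), as did AMDHD1 and FTCD (r = 0.895), whereas FTCD ran against HGD (r = -0.955). HAL was only loosely tied to AMDHD1 (r = 0.598) and not to HPD (r = 0.0608). These correlations mostly restate the group differences above, since the 12 points fall into 4 groups of 3, and no p is given. The genes whose pattern over the 12 libraries was most like that of HAL, among 4012 genes of similar spread and sufficient level, were ZCCHC24 (r = 0.982), MYO1C (0.971), ANO1 (0.965), LOX (0.961), AHSG (0.952) and C8B (0.950). AHSG, a plasma protein gene, averaged 724 CPM in Hep3B shSLC6A8 against 3290 CPM in Hep3B shNC, and 1030 CPM in Huh7 shSLC6A8 against 673 CPM in Huh7 shNC.

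Around HAL, RefSeq lists 18 other genes within 250 kb, of which 12 were in the files and 6 were tested in each line. In Hep3B, AMDHD1 and LTA4H were lower and NTN4 and ELK3 higher, where 21.2% of all genes tested were called lower and 18.9% higher. In Huh7, LTA4H and NTN4 were lower and 0 were higher, where 31.0% of all genes tested were called lower and 30.9% higher. LTA4H, the leukotriene A4 hydrolase gene on the other side of HAL, had a log2 change of -0.35 ± 0.06 in Hep3B (edgeR adjusted p = 0.000803) and -0.30 ± 0.07 in Huh7 (adjusted p = 0.000794). NTN4, a netrin gene, had opposite changes, at 0.71 ± 0.12 in Hep3B (adjusted p = 0.00105) and -1.18 ± 0.32 in Huh7 (adjusted p = 0.00436). Its Huh7 level was low, at 0.774 ± 0.159 CPM in knockdown against 1.76 ± 0.653 CPM in control libraries (SD, n = 3 each). No tested neighbour other than AMDHD1 had a change of 1 log2 unit or more in Hep3B.

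The other enzymes of amino acid breakdown were followed as 8 lists of 100 genes. In Hep3B knockdown cells 16 of 89 tested genes rose, 33 fell and 40 did not pass, with a median log2 change of -0.0736, while 18.9% of all genes tested were called higher there and 21.2% lower; scaled by library totals alone, this split turned to 36 higher and 18 lower. Without Hep3B shSLC6A8 replicate 1, or without Hep3B shNC replicate 2, 9 genes rose. In Huh7 knockdown cells 63 of 94 tested genes rose, 11 fell and 20 did not pass, with a median log2 change of 0.453, while 30.9% of all genes tested were called higher there. The difference of the responses, Hep3B minus Huh7, passed below 0 for 58 and above 0 for 11 of 94 genes, where 47.1% of all genes passed, 23.1% above 0 and 24.0% below.

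**Figure D4:**
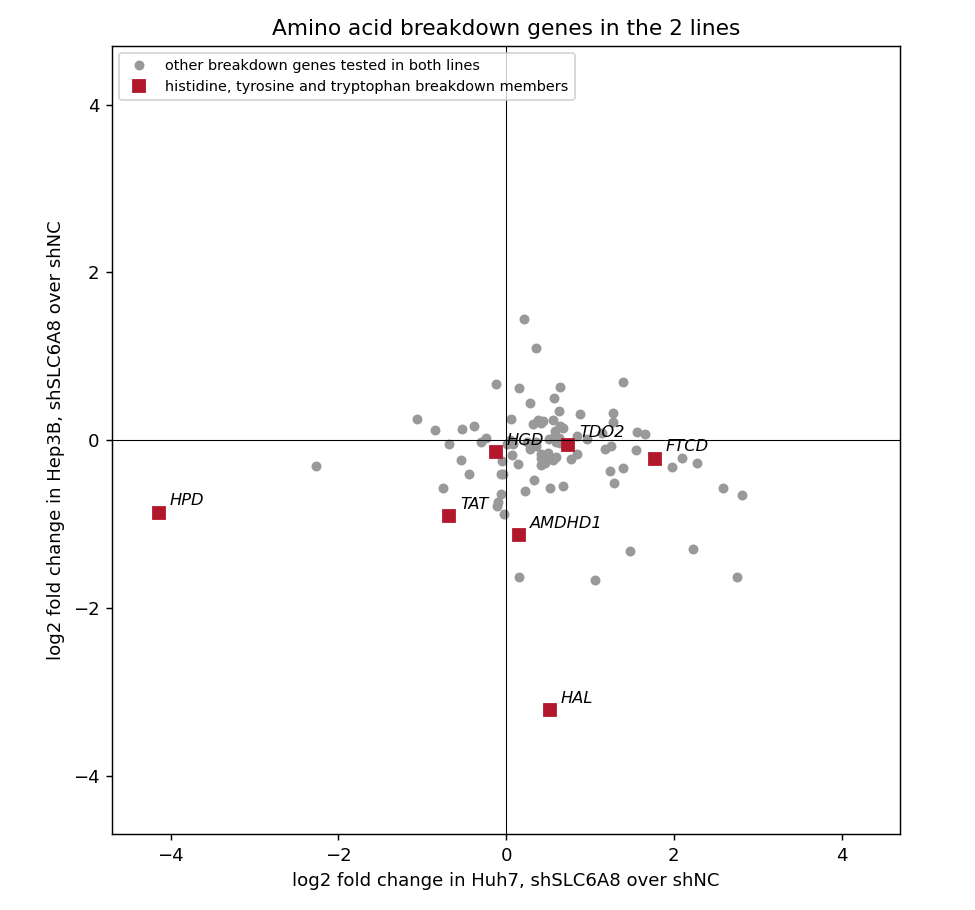
Log2 change of knockdown over control in Huh7 (horizontal) and in Hep3B (vertical) for 89 other amino acid breakdown genes and 7 of the 9 genes tested in both lines. HAL lies at 0.52 and -3.22 and HPD at -4.14 and -0.86, both outside the cloud of other genes. The set was built around HAL in these contrasts, so nothing is read from that place.

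In the other histidine routes, 4 of 10 tested genes rose and 2 fell in Huh7, and 2 of 8 rose and 3 fell in Hep3B. SLC38A3, a liver transporter of glutamine and histidine, rose by 2.59 ± 0.12 on the log2 scale in Huh7 (25.5 against 4.21 CPM, adjusted p = 9.25e-12) and fell by 0.58 ± 0.06 in Hep3B (55.4 against 81.9 CPM, adjusted p = 2.5e-05). SLC15A4, a lysosomal carrier of histidine and peptides, fell by 0.64 ± 0.07 in Hep3B (adjusted p = 6.25e-05). HNMT, which methylates histamine, rose by 0.60 ± 0.05 in Huh7 (adjusted p = 2.78e-08) and stood at 39.2 and 39.6 CPM in Hep3B knockdown and control cells. HARS1, the histidyl-tRNA synthetase gene, fell by 0.69 ± 0.05 in Huh7 (adjusted p = 3.25e-09). Of the folate enzymes, MTHFD1 rose in both lines, by 0.63 ± 0.05 in Huh7 and by 0.35 ± 0.05 in Hep3B.

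In the remaining steps of phenylalanine and tyrosine, 6 of 11 rose and 1 fell in Huh7, and 3 of 11 rose and 2 fell in Hep3B (7 and 1 with library totals). The pterin cofactor enzymes went both ways in Huh7, with QDPR at 0.63 ± 0.07 and GCH1 at 0.59 ± 0.06, both higher, and PTS lower at -0.85 ± 0.11. FAH, the last enzyme of tyrosine breakdown, fell in Hep3B by 0.88 ± 0.09 (12.3 against 22.5 CPM, adjusted p = 3.28e-05), and in Huh7 it stood at 29.4 and 29.7 CPM in knockdown and control cells.

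In the remaining tryptophan and kynurenine steps, 4 of 10 rose and 3 fell in Huh7, and 3 of 9 rose and 3 fell in Hep3B. The Hep3B counts were not stable: 1 gene rose without shSLC6A8 replicate 1 and 0 rose without shNC replicate 2 or 3, and no fit that left out a library called more than 2 as lower, with 1 lower in each fit but that without shNC replicate 1. KYNU, the kynureninase, fell by 2.27 ± 0.06 in Huh7 (35.9 against 172 CPM, adjusted p = 8.73e-15) and by 0.31 ± 0.11 in Hep3B (8.35 against 10.3 CPM, adjusted p = 0.0469). HAAO, a later dioxygenase of the pathway, rose by 1.66 ± 0.12 in Huh7 (13.6 against 4.29 CPM, adjusted p = 2.23e-09) and had a log2 change of 0.07 in Hep3B. QPRT, which leads to NAD, rose by 0.41 ± 0.05 in Huh7 and fell by 0.30 ± 0.06 in Hep3B. The alternative dioxygenases IDO1 and IDO2 passed no filter in either line.

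Among the amino acids beyond these 3, the branched-chain genes rose in Huh7 in 16 of 20 cases with 0 falling, and in Hep3B 2 rose and 9 fell. IVD, the isovaleryl-CoA dehydrogenase, rose by 1.55 ± 0.07 in Huh7, and BCKDHA, a subunit of the branched-chain keto acid dehydrogenase, fell by 0.79 ± 0.06 in Hep3B. For glycine, serine and threonine, 10 of 13 rose and 0 fell in Huh7, and 1 of 12 rose and 4 fell in Hep3B; AGXT, the peroxisomal alanine-glyoxylate aminotransferase, was at 21.9 against 67.2 CPM in Hep3B and 7.38 against 1.09 CPM in Huh7, knockdown against control. For lysine and proline, 8 of 9 rose and 0 fell in Huh7, and 1 of 9 rose and 2 fell in Hep3B, with ALDH4A1, the last enzyme of proline breakdown, at 1.06 in Huh7 and -1.66 ± 0.06 in Hep3B. For the sulphur amino acids, 9 of 12 rose and 3 fell in Huh7, and 2 of 11 rose and 5 fell in Hep3B. For transaminases and deaminases, 6 of 9 rose and 2 fell in Huh7, and 2 of 9 rose and 5 fell in Hep3B, where OAT, the ornithine aminotransferase, fell by 1.63 ± 0.13 (7.06 against 21.6 CPM). With 1 library left out, the Hep3B counts for these 5 lists in the order given ran between 1 and 2, 0 and 2, 0 and 2, 1 and 2, and 1 and 2 genes higher, and between 6 and 10, 3 and 4, 1 and 2, 3 and 5, and 4 and 5 lower. For glycine, serine and threonine, 0 rose without shSLC6A8 replicate 1 or without any 1 of the shNC replicates. For lysine and proline, 0 rose without shSLC6A8 replicate 1 or 3 or shNC replicate 2 or 3, and for the sulphur amino acids 3 fell without shSLC6A8 replicate 1 or shNC replicate 2 or 3. Scaled by library totals, the Hep3B splits turned to 6 higher and 3 lower, 4 and 2, 3 and 2, 4 and 3, and 4 and 4. The largest fall in Hep3B among the named genes of these lists was that of ALDH4A1. HAL was chosen for its fall in this contrast, so nothing is read from setting its change against theirs.

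Of 13 transcription regulators known from liver amino acid breakdown, 8 rose and 2 fell in Huh7, and 0 rose and 8 fell in Hep3B (medians 0.305 and -0.481). Of all genes tested, 30.9% were called higher and 31.0% lower in Huh7, and 18.9% and 21.2% in Hep3B. With library totals 3 rose and 6 fell in Hep3B. With 1 library left out, between 8 and 9 rose and between 1 and 3 fell in Huh7, with 1 falling without Huh7 shSLC6A8 replicate 2. CEBPA rose by 0.63 ± 0.06 in Huh7 (439 against 282 CPM, adjusted p = 1.63e-07) and fell by 0.97 ± 0.11 in Hep3B (141 against 275 CPM, adjusted p = 8.05e-05). PPARGC1A, a coactivator of fasting metabolism, fell by 0.99 ± 0.09 in Hep3B (11.2 against 22.1 CPM, adjusted p = 1.94e-05). KLF15, a known activator of amino acid breakdown genes, rose by 1.81 ± 0.11 in Huh7 and stood at 6.51 against 10.7 CPM in Hep3B, knockdown against control. FOXA1 rose by 1.80 ± 0.07 in Huh7 and had a log2 change of 0.11 in Hep3B.

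The 10 genes known to be induced by glucocorticoids, listed because TAT and TDO2 are such genes, were called in both directions in each line. In Huh7, 4 of 10 rose and 4 fell, and in Hep3B 3 of 9 rose and 3 fell, with medians of 0.0104 and 0.00331. Of all genes tested, 30.9% were called higher and 31.0% lower in Huh7, and 18.9% and 21.2% in Hep3B. The part of glucocorticoid signalling in the TAT and TDO2 values was not tested. In Hep3B 1 rose without shSLC6A8 replicate 1 or 2 or without shNC replicate 2 or 3, and 2 rose without each other library. FKBP5, a chaperone of the receptor, rose by 1.03 ± 0.07 in Huh7 and by 0.43 ± 0.09 in Hep3B. DUSP1, a phosphatase, fell by 2.85 ± 0.06 in Huh7 (adjusted p = 2.2e-16) and by 0.66 ± 0.06 in Hep3B (adjusted p = 2.55e-05). The others that rose in Huh7 were SGK1, ZBTB16 and KLF9, and the others that fell were MT2A (-2.68 ± 0.06), ANGPTL4 (-1.30 ± 0.11) and PER1 (-0.32).

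HAL is also the histidase of epidermis, so markers of that tissue were looked at. KRT1, KRT5, KRT14 and LORICRIN were at 0 in every group, and the summed level of the 8 markers was 13.6 to 28 CPM in Hep3B shSLC6A8 against 7.17 to 8.42 CPM in Hep3B shNC, and 18.8 to 26.8 CPM in Huh7 shSLC6A8 against 41.7 to 55.0 CPM in Huh7 shNC. Most of that sum was KRT10, at 18.5 against 7.39 CPM in Hep3B and 17.3 against 42.6 CPM in Huh7, knockdown against control. In the same order, DSG3 stood at 0.0389 against 0.0545 CPM in Hep3B and 5.05 against 4.21 CPM in Huh7. TP63 stood at 0.0128 against 0.162 CPM in Hep3B and 0.904 against 0.968 CPM in Huh7. SBSN was at 0.131 CPM or below in every group. Fibroblast and stellate markers summed to 16.3 to 17.5 CPM in Hep3B shSLC6A8 against 17.0 to 18.7 CPM in Hep3B shNC, and to 96.0 to 99.0 CPM in Huh7 shSLC6A8 against 67.4 to 73.4 CPM in Huh7 shNC. Within the Hep3B sum PDGFRB stood at 1.90 against 9.88 CPM, COL1A2 at 6.75 against 3.27 CPM and LUM at 7.66 against 3.67 CPM, knockdown against control. Blood and endothelial markers summed to 24.7 to 26.3 CPM in Hep3B shSLC6A8 against 68.0 to 71.7 CPM in Hep3B shNC, with HBB, VWF and CDH5 at 0 in Hep3B, and to 19.6 to 21.8 CPM in Huh7 shSLC6A8 against 39.4 to 41.3 CPM in Huh7 shNC. CD68 made up most of it, at 23.8 against 66.7 CPM in Hep3B and 15.6 against 36.9 CPM in Huh7, knockdown against control. The part of these lists in the HAL values was not tested.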

How the data were processed

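RNA sequencing libraries, made with an mRNA kit on total RNA per the labels' protocols, were analysed in 4 groups of 3, 12 in all. The authors deposited, per the file headers, estimated counts per gene and TPM for each library, mapped to GRCh38.p14 according to the submitters' processing notes. Which aligner and counter were run, and whether strand was used, is not given in the sources used here. The deposited tables also hold the authors' fold ratio, log2 change, p-value and adjusted p-value, which were set beside the fit used here and are not printed. Deposited TPM summed to 998190 to 998473 in Hep3B and 999999 to 1000001 in Huh7.

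Expected counts were rounded to whole numbers and tested with edgeR 4.0.16 (R 4.3.3): filterByExpr, TMM scaling, robust quasi-likelihood F test, Benjamini-Hochberg adjusted p under 0.05. Each knockdown was fitted within its line; the comparisons between lines used all 12 libraries. The SE is the log2 change divided by the square root of F, an approximation. CPM was computed with a prior count of 2 for log2 values and none otherwise. Common biological variation was 5.92% in Huh7 and 7.77% in Hep3B. DESeq2 1.42.0 and limma-voom (limma 3.58.1), other scalings and filters, a replicate block and leaving out each library were the alternatives. No pair of replicates in a group agreed within sampling noise. The fit was tested on simulated counts with known changes.

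The 9 genes, the lists and the tests were chosen with earlier results of these data known. Genes of the lists were named as the 3 with the lowest adjusted p per line and direction among those called whose mean log2 CPM reached 0. Similar patterns to HAL are the 6 highest Pearson correlations of log2 CPM among genes with at least 0.5 of its SD whose mean log2 CPM reached 1. The window around HAL was 250 kb. Coordinates are those of RefSeq on GRCh38.p14; promoters are also from RefSeq. All columns of sample values were mapped to samples. Some genes that the naming rule would give are not reported here.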

Additional observations from a re-analysis of the deposited data

Results flagged for a closer look

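In 16 of the named genes reported here, out of the comparison lists, the knockdown change passed in opposite directions in the lines and its difference, Hep3B minus Huh7, also passed (edgeR, adjusted p under 0.05). These 16 were lower in Hep3B knockdown cells and higher in Huh7 knockdown cells, a count that does not cover the genes left out of the text. The log2 difference was -4.37 for AGXT, -3.52 for GPT, -3.47 for MAT1A, -3.16 for SLC38A3 and -2.72 for ALDH4A1. The Huh7 control levels behind AGXT, GPT and MAT1A were low, at 1.09, 0.501 and 0.438 CPM. Of the regulators, KLF15 differed by -2.53 and CEBPA by -1.60. SARDH, of sarcosine breakdown, differed by -2.54. Smaller differences were -1.78 for OAT, -1.73 for ACADSB, -1.60 for GLUD1, -1.23 for TST and -1.09 for GCAT, and -0.84 for BCKDK, -0.70 for QPRT and -0.58 for GOT2. Some Hep3B falls behind them were small, at -0.16 for GOT2, -0.27 for SARDH and -0.33 for ACADSB. Their edgeR adjusted p-values in Hep3B were 0.0185, 0.0115 and 0.0113, so none of these falls passed at 0.01. None of the 9 genes is counted among the 16, since their choice used the same contrasts.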

How the results depend on the processing

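HAL kept its direction in both lines under every alternative run: its log2 change ran between -3.26 and -3.03 in Hep3B and between 0.48 and 0.63 in Huh7, with -3.03 and 0.63 under scaling by library totals. That scaling shifted the median of all genes to 0.203 in Hep3B and 0.105 in Huh7, the share of higher calls to 76.2% and 59.7%, the Hep3B breakdown lists to 36 higher and 18 lower, and HGD in Hep3B to 0.05. At an adjusted p under 0.01, 4206 genes passed in Hep3B against 6488, and 7 list genes rose. Leaving out 1 library at a time gave HAL -3.26 to -3.16 in Hep3B and 0.48 to 0.58 in Huh7, with a difference of -3.79 to -3.68. It gave 9 to 16 list genes higher and 25 to 32 lower in Hep3B, and 61 to 65 higher and 11 to 12 lower in Huh7. Calls ran between 4905 and 6513 in Hep3B, 9722 and 10508 in Huh7, 8150 and 8948 for the difference, 14852 and 15450 between control groups, and 14275 and 15015 between knockdown groups. TAT in Hep3B missed the threshold in DESeq2, limma-voom, library totals, the replicate block and 5 of 6 fits that left out a library. TDO2 between control groups, never called, turned positive without a filter (0.0044), in limma-voom (0.044), with the replicate block (0.014) and without Hep3B shNC replicate 1 (0.02) or 2 (0.03) or Huh7 shNC replicate 2 (0.27), and ran between -0.25 and 0.27 with 1 library left out. KMO there lost its call under 8 alternatives.

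Same-numbered libraries correlated in their deviations at -0.0849, -0.0923 and 0.237 in Hep3B and -0.0347, -0.1 and -0.0422 in Huh7. Unlike-numbered Hep3B libraries ran between -0.3 and 0.358. With 3 libraries per group, these values cannot show whether same-numbered libraries shared a batch, and the labels state none. With the replicate block, 10125 genes passed in Huh7 and 6221 in Hep3B. TDO2, KMO and UROC1 are limited by depth.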

Other observations

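HPD was taken, after its values were seen, through the same surroundings as HAL. Of 14 neighbours within 250 kb that were in the files, 9 were tested in Huh7, where 6 passed as lower and 0 as higher (3 did not pass; 31.0% of all genes tested in Huh7 were called lower). PSMD9, a proteasome assembly gene 179 bases from HPD, had a log2 change of -0.54 ± 0.07 in Huh7 (adjusted p = 2.29e-06) and 0.04 ± 0.09 in Hep3B. SETD1B, 6871 bases away on the other side, stood at 0.01 ± 0.07 in Huh7 (adjusted p = 0.953).

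The genes whose log2 CPM over the 12 libraries was most like that of HPD, among 2737 candidates, were TMCC1 (r = 0.992), PPP1R15A (0.988), RIT1 (0.985), TNFRSF12A (0.985), ATF3 (0.981) and MAFK (0.980). The points are 4 groups of 3 libraries, and no p is given. ATF3, a stress-induced transcription factor gene, averaged 5.23 CPM in Huh7 shSLC6A8 against 40.7 CPM in Huh7 shNC, and 16.5 CPM in Hep3B shSLC6A8 against 21.5 CPM in Hep3B shNC.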
